A study of Mus musculus with 4 samples.

Results

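Fast-inactivating A-type potassium currents in dendrites are carried by Kv4 channels. *Kcnd2* and *Kcnd3* encode pore-forming Kv4 subunits. *Kcnip1* to *Kcnip4* encode the KChIPs, which are EF-hand calcium-binding proteins that attach to the Kv4 N terminus, and *Dpp6* and *Dpp10* encode single-pass membrane proteins that attach to the same channels. These 8 genes were read together because their products form 1 channel complex. They are 8 of the 43348 features counted, and what follows describes these 8 genes and not the tissue as a whole.

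The study sorted TdTomato-positive cells from juvenile mice (postnatal day 18-20) that carried *Nkx2-1-Cre*, the Ai14 reporter and either WT or floxed *Grin1* on both alleles. *Grin1* encodes the obligatory subunit of NMDA receptors, so floxed mice lack it in cells with a history of *Nkx2-1*. Frontal cortex and hippocampus of littermates of both sexes were taken for 10x Genomics runs. The paper handled 3 to 4 mice on consecutive days and used 10 WT animals over all WT replicates, and pooling of mice is read from these numbers. At these numbers the cortex and hippocampus libraries of a replicate most likely came from the same mice. Fits between regions without the replicate block do not take this into account. There were 3 WT and 2 *Grin1*-null libraries for each region, 10 in all.

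Every p value below measures the spread between these pooled libraries, not between single mice. Replicate 1 of every group was made with the v2 kit and replicates 2 and 3 with the v3 kit, so replicate 1 cannot be told apart from the v2 kit. No replicate 3 exists among the null libraries used here. Counts are UMIs, given as CPM of the UMIs of the same cells, and libraries are always listed in the order of replicates 1, 2 and 3.

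After cell selection, 26201 of 26987 barcodes were used. WT cortex libraries then held 1277, 3830 and 3930 cells, and WT hippocampus libraries held 2219, 4599 and 3135. Null cortex libraries held 177 and 2578 cells, and null hippocampus libraries held 401 and 4055. The libraries thus differed widely in size, and the first null cortex library was by far the smallest. The largest number of barcodes shared by 2 libraries was 12, or 0.312% of the smaller library. WT hippocampus replicate 2 stood apart from the rest: its median cell had 1479 UMIs, against 4411 and 5741 in the other WT hippocampus libraries. It also held 510 of the 1028 cells of the low-UMI cluster 9 (11.1% of its cells, against 14.7% in the small null cortex replicate 1), 511 of the 601 cells of cluster 16 and 256 of the 266 cells of cluster 28. Replicate 2 of both null groups stood apart in mitochondrial share, which was over 30% in 287 of 2898 cortical and 265 of 4436 hippocampal barcodes. No other library had more than 4 such barcodes. Median UMIs of SST cells were 8688 and 15564 in null cortex and 14233 and 15475 in null hippocampus, against 3249.5 to 11982.5 in WT libraries. Where leaving out 1 library turned the main log2 value of a member given below, or moved it by more than 1.5 times, the range over those fits is given.

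The cells formed 35 clusters, of which 30 were named from marker genes. SST interneurons comprised clusters 4, 6, 7, 22 and 25. A *Th*-positive cluster, cluster 12 with 733 cells, is called TH and is shown alone where levels are compared between classes. PVALB interneurons comprised clusters 2, 24 and 32, neurogliaform cells (NGFC) clusters 3 and 16, and oligodendrocyte precursors (OPC) clusters 11, 27 and 28. In tests between groups the TH cluster was added to SST, as in the study, and this sum is called SST/TH. Its WT libraries summed 620, 1055 and 1512 cells in cortex and 286, 319 and 308 in hippocampus, and its null libraries summed 84 and 649 in cortex and 88 and 786 in hippocampus. The PVALB sums were 137, 502 and 645 in WT cortex, 50, 180 and 79 in WT hippocampus, 28 and 246 in null cortex and 32 and 276 in null hippocampus. Null cortex replicate 1 had 4 NGFC and 2 OPC cells, so null and WT cortex were not tested in those 2 classes.

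*Grin1* was read first in every library, because it is the deleted gene. In SST/TH cells it stood at 153, 254 and 231 CPM in WT cortex, 36.3 and 28.3 in null cortex, 121, 199 and 156 in WT hippocampus, and 23.7 and 21.7 in null hippocampus. In PVALB cells the values were 112, 214 and 179 in WT cortex, 42.5 and 23.5 in null cortex, 106, 163 and 123 in WT hippocampus, and 23.2 and 16.8 in null hippocampus. Every null library lay below every WT library in both classes. The log2 change in SST/TH was -2.74 in cortex (edgeR adjusted p = 0.0462; DESeq2 adjusted p = 5.16e-11) and -2.80 in hippocampus (edgeR adjusted p = 0.0393; DESeq2 adjusted p = 1.03e-11). In PVALB it was -2.53 in cortex (edgeR adjusted p = 0.0277; DESeq2 adjusted p = 8.35e-06) and -2.82 in hippocampus (edgeR adjusted p = 0.0758; DESeq2 adjusted p = 1.29e-06). In the main fits edgeR thus did not call *Grin1* at an adjusted p of 0.01 in either class, while DESeq2 called it in both. Over all alternatives *Grin1* was called in 5 of 29 fits in SST/TH and 4 of 25 in PVALB of cortex. In hippocampus these were 3 of 29 and 2 of 25. Even this large loss of the deleted transcript misses the threshold in the main edgeR fits, so members with smaller differences cannot be shown by them to be unchanged. Whether the 3′ tags of *Grin1* lie in the deleted part is not given in the sources used here.

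Of the pore subunits, *Kcnd2* was spread over neurons and OPC, and *Kcnd3* had its highest means in SST and NGFC cells. These comparisons between classes are descriptions on the CPM scale without a test, and 3′ UMI counts do not scale with transcript length. *Kcnd2* averaged 148 CPM in OPC over the WT libraries (range 106 to 179), 127 in glutamatergic neurons (107 to 151), 121 in SST (59.4 to 147), 91.3 in PVALB and 84.1 in NGFC. The ranges of these classes overlapped. *Kcnd3* averaged 64.6 CPM in SST (33.4 to 99.6), 46.1 in NGFC, 31.1 in glutamatergic neurons, 23.2 in PVALB (11.7 to 51.5) and 14.2 in TH. Glutamatergic means of all members include WT hippocampus replicate 2, with 13 such cells at a median of 1108 UMIs. Single UMIs weigh heavily in that library. Within single libraries the order was steadier than the ranges: *Kcnd3* was higher in SST than in PVALB in 10 of 10 libraries, with a median ratio of 2.60. *Kcnd3* was also higher in SST than in TH in 8 of 8 libraries (median ratio 4.79). *Kcnd2* was higher in SST than in TH in 8 of 8 libraries, with a smaller median ratio of 1.48. Oligodendrocytes had 2.09 CPM of *Kcnd2* and 0.514 CPM of *Kcnd3*.

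The 4 KChIP genes each had their highest mean in a different class. *Kcnip1* led in NGFC, *Kcnip2* in PVALB, *Kcnip3* in OPC and *Kcnip4* in TH. *Kcnip1* averaged 88.7 CPM in NGFC, 66.7 in SST and 57.3 in PVALB, with overlapping ranges. *Kcnip2* averaged 207 CPM in PVALB (114 to 294), 115 in TH, 62.0 in glutamatergic neurons and 20.9 in SST. *Kcnip2* was higher in PVALB than in SST in 10 of 10 libraries (median ratio 8.88) and than in TH in 8 of 8 (median ratio 1.92). PVALB cells thus had more *Kcnip2* than SST and TH cells in every library where both could be read, although the ranges of PVALB and TH across libraries overlapped. *Kcnip3* averaged 209.9 CPM in OPC (169 to 265), which did not overlap the next class, astrocytes, at 75.9 (39.2 to 130.2). In the interneurons *Kcnip3* was close to the limit of reading, at 2.09 CPM in SST and 3.27 in PVALB, and reached 17.6 in NGFC. Committed oligodendrocyte precursors had 4.07 CPM, so among these classes *Kcnip3* was high in OPC and astrocytes and low in the interneurons. *Kcnip4* averaged 281 CPM in TH (205 to 332), 133 in glutamatergic neurons (54.3 to 301), 74.7 in choroid plexus cells (0 to 222), 67.0 in PVALB, 39.5 in SST and 9.66 in NGFC. The ranges of TH and of glutamatergic neurons overlapped. The glutamatergic range includes WT hippocampus replicate 2, with 13 such cells, where single UMIs weigh heavily. *Kcnip4* was higher in TH than in SST in 8 of 8 libraries, with a median ratio of 7.87. *Kcnip4* was also the 4th leading gene of the TH cluster when each cluster was compared with all others, and no other member was among the leading genes of a cluster.

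*Dpp6* was abundant in all neuron classes, and *Dpp10* was low in TH cells. *Dpp6* averaged 254 CPM in TH, 203 in SST, 174 in PVALB, 159 in glutamatergic neurons, 142 in OPC and 113 in NGFC, each class overlapping the next. *Dpp10* averaged 113 CPM in SST, 84.8 in NGFC, 70.05 in PVALB, 54.1 in glutamatergic neurons, 51.1 in OPC and 21.0 in TH. The *Dpp10* ranges of OPC (37.8 to 76.7) and TH (11.0 to 34.2) did not overlap. The 2 DPP genes therefore ran in opposite directions between TH and SST cells. *Dpp6* was higher in TH than in SST in 8 of 8 libraries (median ratio 1.56). *Dpp10* was higher in SST than in TH in 8 of 8 libraries (median ratio 6.35).

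**Figure D1:**
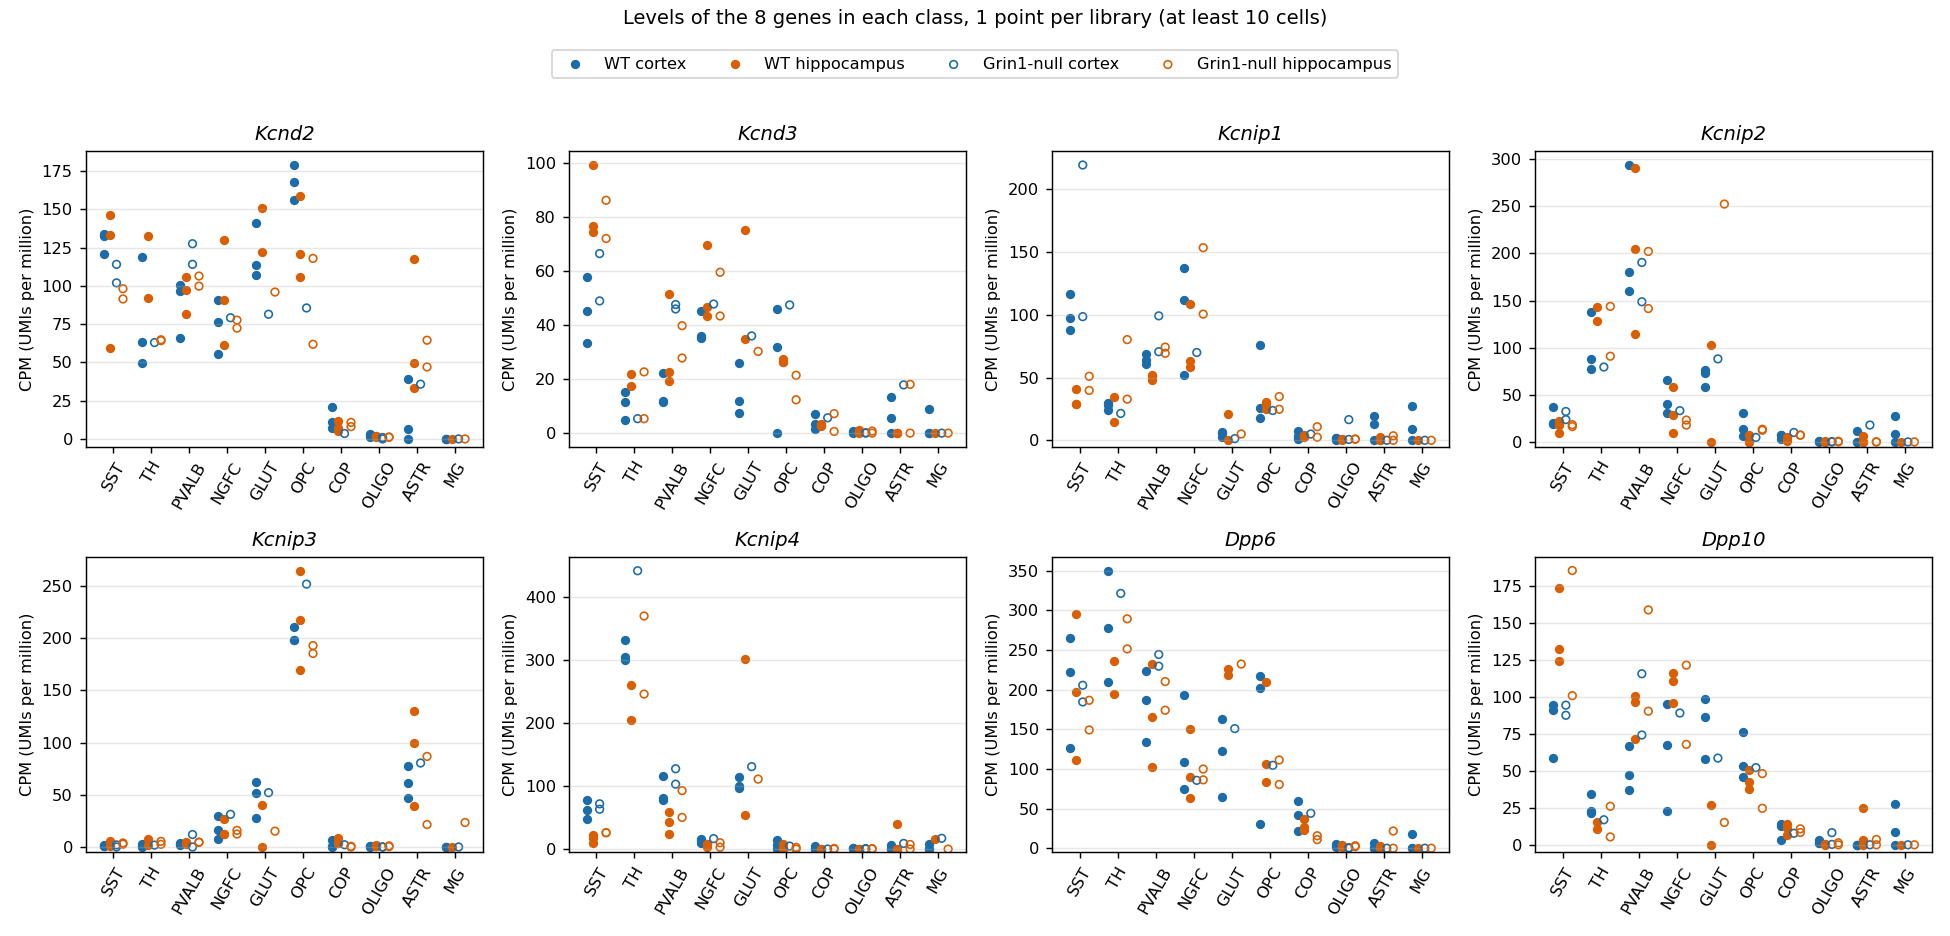
Levels of the 8 genes in each cell class. Axes: cell class across, CPM up; each point is 1 library with at least 10 cells, blue for cortex and orange for hippocampus, filled for WT and open for null. Over the WT libraries *Kcnip4* averaged 281 CPM in TH, *Kcnip2* 207 in PVALB and *Kcnip3* 209.9 in OPC.

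The mix of the family differed between classes. *Kcnip4* made up 71.0% of KChIP UMIs in TH cells of WT cortex and 58.3% in WT hippocampus, and *Kcnip2* made up 56.4% and 65.6% in PVALB cells. *Kcnip1* made up 53.4% in SST cells of WT cortex and 49.2% in WT hippocampus, and 56.0% and 59.2% in NGFC. In OPC *Kcnip3* made up 76.9% in WT cortex and 85.9% in WT hippocampus. SST and NGFC thus shared *Kcnip1* as the main KChIP, and TH, PVALB and OPC each had another one, in both regions. *Kcnd2* made up 74.1% of the UMIs of *Kcnd2* and *Kcnd3* in SST cells of WT cortex and 55.8% in WT hippocampus, and 84.5% and 76.5% in PVALB cells. *Dpp6* made up 70.9% of DPP UMIs in SST cells of WT cortex and 56.6% in WT hippocampus, against 90.9% and 94.2% in TH cells. Both the pore and the DPP mix of SST cells were therefore more even in hippocampus than in cortex.

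The share of single cells with at least 1 UMI depends on sequencing depth, so it was also read at an equal depth. In WT SST cells (median 7300 UMIs) *Dpp6* was read in 71.7% of cells, *Kcnd2* in 53.9%, *Dpp10* in 42.0%, *Kcnip1* in 40.2%, *Kcnd3* in 29.1% and *Kcnip4* in 21.7%. When each cell was thinned to 1000 UMIs, these shares were 20.7%, 12.3%, 9.47%, 7.01%, 4.83% and 4.89%. Thinning can only remove UMIs, so these lower shares were fixed in advance. Only the thinned shares compare classes at an equal depth. In TH cells (median 6828 UMIs) *Kcnip4* was read in 76.9% of cells and in 28.9% after thinning. In PVALB cells (median 6807 UMIs) *Kcnip2* was read in 59.8% and in 16.9% after thinning. In OPC (median 1505.5 UMIs) *Kcnip3* was read in 29.3% and in 19.3% after thinning. After thinning, the highest of these shares was that of *Kcnip4* in TH cells. Microglia, taken as the background class (median 1096 UMIs), had *Kcnip1*, *Kcnip2*, *Kcnip4*, *Dpp6* and *Dpp10* in 0.957% of cells each, *Kcnd3* in 0.478%, and *Kcnd2* and *Kcnip3* in 0%. After thinning, *Kcnip1* was read in 1.74% of microglia, *Kcnip2*, *Kcnip4* and *Dpp10* in 0.87%, and the other 4 in 0%. Cells with fewer than 1000 UMIs were left out of the thinned shares: 15 in SST, 21 in PVALB, 322 in OPC, 94 in microglia and 0 in TH.

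Levels also differed between clusters of 1 class, in both PVALB and SST cells. Cluster 24, marked by *Pthlh*, had more *Kcnd3* than cluster 2 in 8 of 8 libraries (median ratio 3.87), and more *Kcnd2* in 8 of 8 (median ratio 2.11). *Dpp10* was also higher in cluster 24 in 8 of 8 libraries (median ratio 1.90). *Kcnip4* ran the other way and was higher in cluster 2 in 8 of 8 libraries. In cluster 24 *Kcnip4* was at 9.82, 2.40 and 0 CPM in WT cortex, against 131, 93.0 and 85.4 in cluster 2. PVALB cells thus contained 1 cluster with more *Kcnip4* and less *Kcnd3*, and 1 with the reverse. Among SST clusters, cluster 7 (*Crh*, *Tac2*) had more *Kcnip4* than cluster 4 (*Cbln4*, *Calb2*) in 10 of 10 libraries, with a median ratio of 3.75. *Dpp10* was higher in cluster 4 than in cluster 7 in 10 of 10 libraries (median ratio 5.54).

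**Figure D2:**
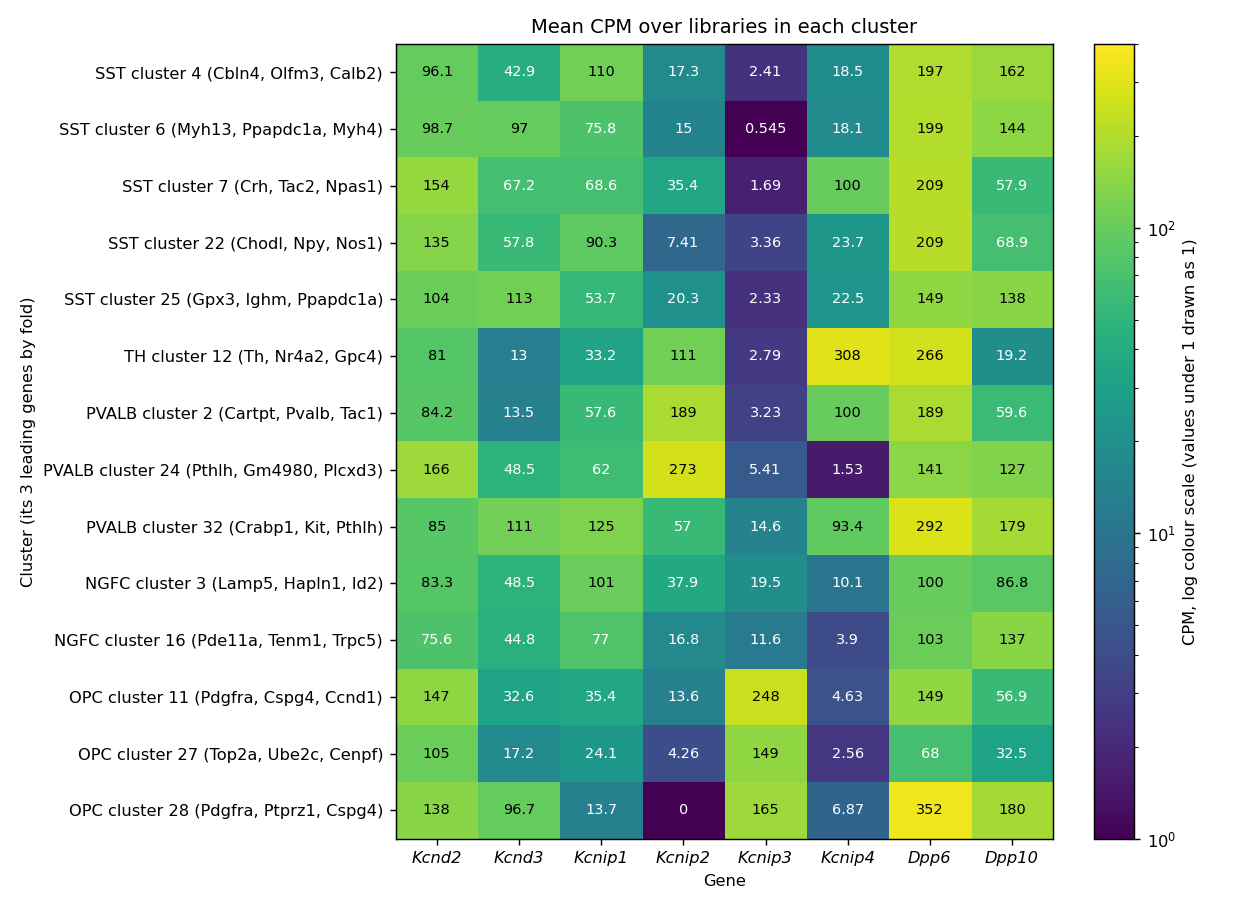
Levels of the 8 genes in each interneuron and OPC cluster. Axes: gene across, cluster up, colour and printed value the mean CPM over libraries. *Kcnip4* was higher in cluster 7 than in cluster 4 in 10 of 10 libraries.

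Region was compared in WT libraries only. In SST/TH cells the hippocampus had less *Kcnip1* and *Kcnip4* and more *Kcnd3* and *Dpp10* than the cortex. None of these differences passed the edgeR threshold when the replicate number was ignored, and *Kcnip1* and *Kcnip4* passed it when the number was a block. *Kcnip1* was at 105, 92.4 and 81.7 CPM in cortex and 37.1, 28.7 and 29.9 in hippocampus, with all hippocampal libraries below all cortical ones. Its log2 difference was -1.60 (SE 0.23), the largest of the members, with an edgeR adjusted p of 0.0447. DESeq2 did call *Kcnip1* (DESeq2 adjusted p = 1.01e-06), and over the alternative settings of the whole class its adjusted p ranged from 1.01e-06 to 0.0673 with all libraries and from 0.048 to 0.248 with 1 left out. With the replicate number as a block the difference of *Kcnip1* was -1.59 and was called (edgeR adjusted p = 0.000139). Whether *Kcnip1* counts as called thus depends on the block, the tool and the filter, while its direction was the same in all fits. *Kcnip4* was at 112, 66.4 and 86.4 CPM in cortex and 56.1, 9.84 and 47.0 in hippocampus. The log2 difference of *Kcnip4* was -1.27 (SE 0.48; edgeR adjusted p = 0.573), and with the replicate block it was -1.38 and was called (edgeR adjusted p = 0.00495). All 3 hippocampal libraries again lay below the cortical ones, and the lowest was replicate 2, which summed 3 TH cells. *Kcnd3* was at 51.6, 43.1 and 30.5 CPM in cortex and 88.4, 76.3 and 65.6 in hippocampus, a log2 difference of 0.83 (edgeR adjusted p = 0.403). *Dpp10* was at 55.6, 89.0 and 84.4 CPM in cortex and 108, 173 and 114 in hippocampus, a log2 difference of 0.74 (edgeR adjusted p = 0.609; 0.46 to 0.87 with 1 library left out). These 2 genes were thus higher in every hippocampal library.

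By edgeR, 0 of 7 members tested were called between regions in SST/TH cells, where 0.0419% of the 11937 genes tested were called. At an unadjusted p under 0.05 there were 4 members and 830 genes in all (6.95%), and DESeq2 called 1 member and 105 genes in all. With the replicate block edgeR called 2 of 7 members and 261 genes in all. The libraries of the regions did not overlap for 4 of 7 members, against 12.2% of all genes tested. That is a count without a test. *Kcnd2*, *Kcnip2* and *Dpp6* overlapped between regions, with log2 differences of -0.21, -0.30 and -0.07, and with 1 library left out these ran from -0.44 to 0.05, from -0.56 to 0.14 and from -0.46 to 0.20. *Kcnip3* had too few UMIs to be tested. Without WT hippocampus replicate 2 the log2 difference of *Kcnip1* was -1.56 (edgeR adjusted p = 0.048), and that of *Kcnip4* was -0.87 (edgeR adjusted p = 0.342). That of *Dpp10* was 0.46 without it. The regional values of *Kcnip4* and *Dpp10* in SST/TH cells thus rest partly on that library, and that of *Kcnip1* does not.

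The makeup of SST/TH cells differed between regions, with cluster 4 at 21.9% in WT cortex and 39.5% in WT hippocampus (of SST cells without TH, 15.6%, 29.1% and 25.1% in the cortex libraries and 52.3%, 52.2% and 27.8% in the hippocampus ones), so clusters were also tested one at a time, a choice made after the data had been seen. Within cluster 4 the log2 difference of *Kcnip1* was -2.34 and was called (edgeR adjusted p = 0.00614). In that cluster *Kcnip1* was at 205, 140.4 and 121 CPM in cortex and 31.5, 35.8 and 25.7 in hippocampus. The *Kcnip1* difference was -1.65 within cluster 6, -1.02 within cluster 7 and -0.04 within cluster 12. Clusters 6 and 12 rest on 2 hippocampal libraries each, with 121 and 79 cells and with 45 and 56. Cluster 7 rests on hippocampal libraries of 56, 11 and 98 cells, the smallest being replicate 2. The 3 SST clusters thus had the same direction, and whether they differ from the TH cluster was not tested. *Kcnip4* differed by -1.20 within cluster 4, -1.22 within cluster 6, -2.20 within cluster 7 (edgeR adjusted p = 0.0188) and -0.45 within cluster 12. *Kcnd3* differed by 0.89, 0.79, 1.53 and 1.04 within the same 4 clusters. *Dpp10* differed by 0.12, 0.73, 1.95 and -0.91. *Kcnip4* and *Kcnd3* thus kept their direction in each cluster tested, while *Dpp10* hardly differed within cluster 4 and pointed toward the cortex within cluster 12. With the TH cluster left out of the sum, the *Kcnip4* difference had an edgeR adjusted p of 0.0456. In SST cells alone *Kcnip4* stood at 78.6, 47.9 and 61.6 CPM in cortex and 21.6, 9.90 and 17.1 in hippocampus. When libraries were clustered without integration the *Kcnip4* difference in SST/TH was -0.47.

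PVALB cells had the same directions as SST/TH cells for *Kcnip4*, *Kcnip1*, *Dpp10* and *Kcnd3*, with no member called. The makeup of PVALB cells also differed: cluster 24, which has more *Kcnd3* and *Dpp10* and hardly any *Kcnip4*, held 15 of 137, 67 of 502 and 31 of 645 of them in WT cortex and 15 of 50, 81 of 180 and 11 of 79 in WT hippocampus. *Kcnip4* was at 116, 78.2 and 81.6 CPM in WT cortex and 24.2, 43.3 and 59.1 in WT hippocampus, so all hippocampal libraries were lower. Its log2 difference was -1.04 (SE 0.34; edgeR adjusted p = 0.709) and -0.77 within cluster 2 alone. *Dpp10* was at 37.0, 67.1 and 47.1 CPM in cortex and 97.0, 100.6 and 71.6 in hippocampus, so all hippocampal libraries were higher. The log2 difference of *Dpp10* was 0.82 (SE 0.29; edgeR adjusted p = 0.882), 0.60 within cluster 2 and 0.94 within cluster 24. *Dpp10* thus kept its direction inside both clusters and *Kcnip4* inside cluster 2, the only one in which it was tested, while the values of the whole class cannot be told apart from the makeup. *Kcnip1* was at 68.4, 63.7 and 60.6 CPM in cortex and 51.5, 52.0 and 47.7 in hippocampus, a narrow separation with a log2 difference of -0.34, which was -0.52 within cluster 2 and 0.18 within cluster 24. *Kcnd3* was at 22.2, 11.9 and 11.7 CPM in cortex and 51.5, 22.5 and 19.3 in hippocampus. These ranges overlapped, although within every replicate number the hippocampal library was the higher one. The log2 difference of *Kcnd3* was 0.997 (0.52 to 1.29 with 1 library left out), and within cluster 2 the regions overlapped too. In both regions replicate 1, the v2 library, was the highest for *Kcnd3*. Of the 7 members tested, edgeR called 0, where 0.034% of the 8811 genes tested were called. At an unadjusted p under 0.05 there were 3 members and 374 genes in all (4.24%), and DESeq2 called 0 members and 24 genes in all. With the replicate block edgeR called 0 members and 50 genes in all. For 3 of 7 members the libraries did not overlap, against 8.93% of all genes tested. *Kcnip2* in PVALB cells, at 294, 181 and 160.3 CPM in cortex and 291, 114 and 205 in hippocampus, differed by -0.07 (-0.42 to 0.24 with 1 library left out) and was likewise highest in the v2 library of each region.

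**Figure D3:**
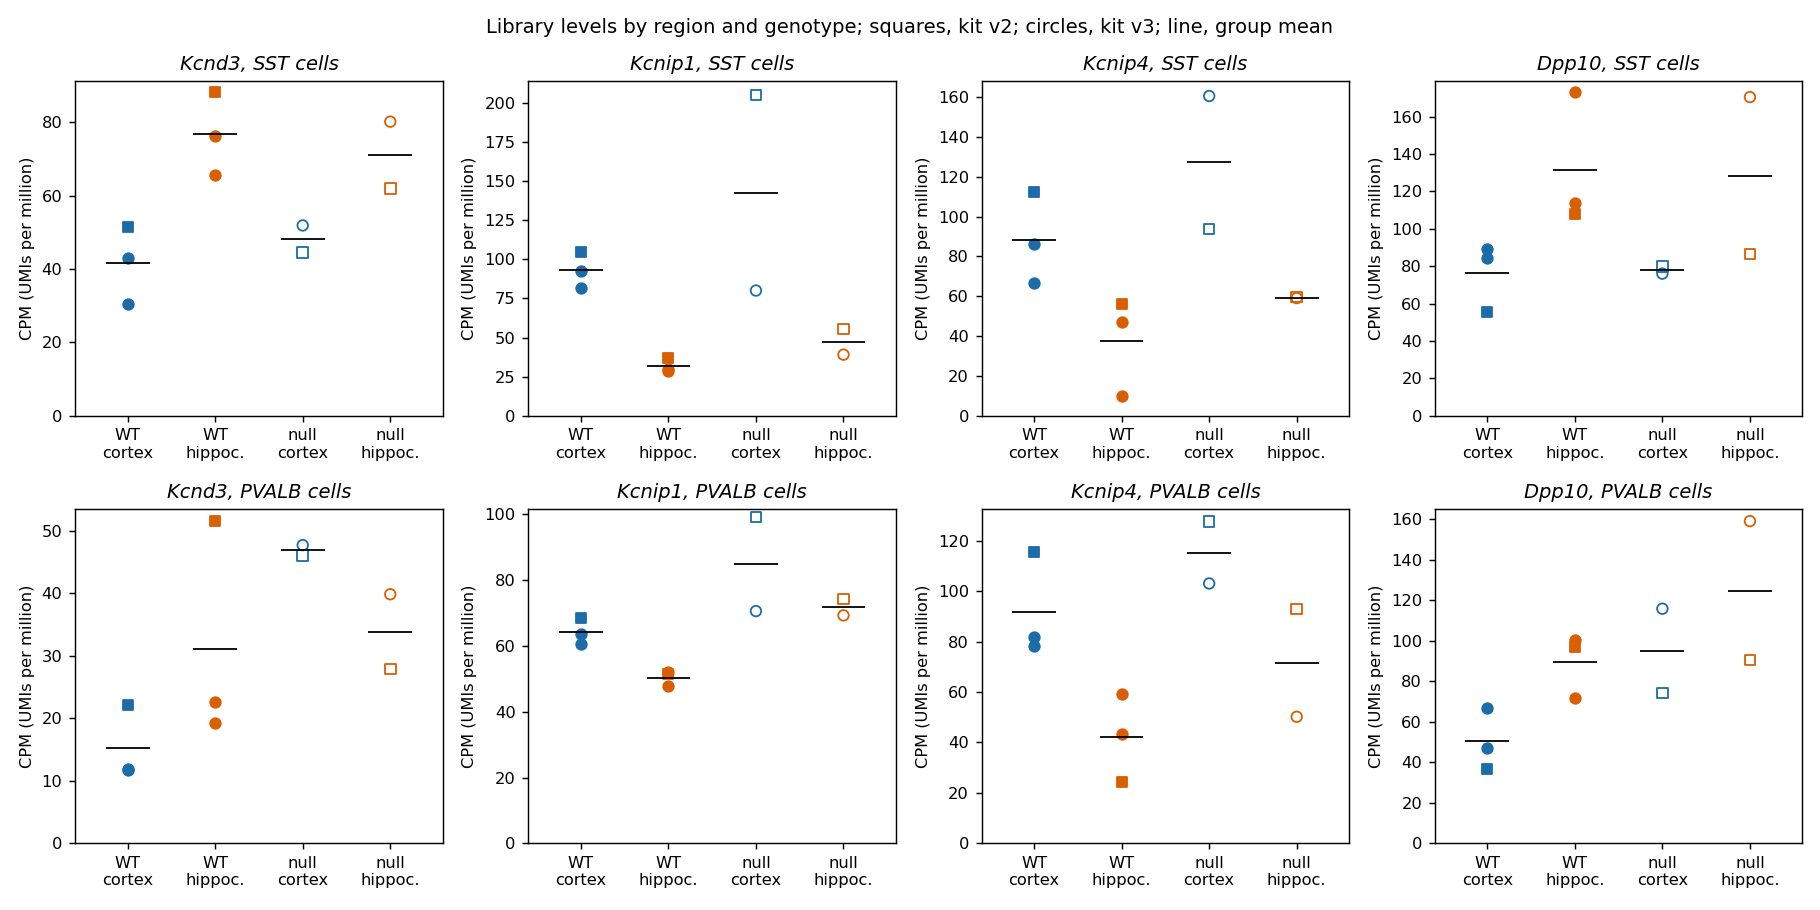
*Kcnd3*, *Kcnip1*, *Kcnip4* and *Dpp10* in SST cells with the TH cluster (top) and PVALB cells (bottom). Axes: region and genotype across, CPM up; each point is 1 library, squares are the v2 kit and circles the v3 kit, filled points are WT and open points null, and lines are group means. In PVALB cells *Kcnd3* was at 46.0 and 47.7 CPM in null cortex.

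In NGFC the only member whose regions separated was *Dpp10*. It was at 22.9, 95.4 and 67.5 CPM in WT cortex and 111, 96.1 and 116 in WT hippocampus, and its log2 difference was 0.82 (SE 0.41; edgeR adjusted p = 1). The separation was narrow, at 95.4 against 96.1 CPM, and leaving out 1 library moved the log2 difference to between 0.47 and 1.19. NGFC makeup differed as well, with cluster 16 at no more than 5.83% in each WT cortex library and at 2.86%, 99.2% and 10.1% in the WT hippocampus libraries, so mainly in replicate 2. Within cluster 3 alone, which leaves out WT hippocampus replicate 2, the *Dpp10* difference was 0.82. In the whole-class sums of SST/TH, PVALB and NGFC cells *Dpp10* was thus higher in every hippocampal library, without a call in any. edgeR called 0 of the 7 members tested in NGFC, where 0% of the 7843 genes tested were called; at an unadjusted p under 0.05 there were 0 members and 206 genes in all (2.63%), and DESeq2 called 0 members and 6 genes in all. Groups were apart without overlap for 1 of 7 members and 6.74% of all genes tested. *Kcnip1* in NGFC ran from 52.2 to 137 CPM in cortex and from 58.4 to 109 in hippocampus and overlapped. In OPC *Kcnip3* was at 198, 211 and 199 CPM in WT cortex and 265, 169 and 218 in WT hippocampus, which overlapped. Cluster 28 was 0% of OPC in WT cortex and 0%, 69.9% and 2.44% in the WT hippocampus libraries. By edgeR 0 of 4 members tested were called in OPC, where 0% of the 5013 genes tested were called; at an unadjusted p under 0.05 there were 0 members and 218 genes in all (4.35%), and DESeq2 called 0 members and 1 gene in all. Libraries did not overlap for 0 of 4 members, against 10.8% of all genes tested.

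Loss of *Grin1* was compared with WT in each region, between libraries that also differed in mitochondrial share and depth as given above. In SST/TH cells of the cortex no member was called, and the 2 null libraries lay far apart from each other for *Kcnip1* and *Kcnip4*. *Kcnip1* in cortex was at 205 and 80.04 CPM in null libraries and 105, 92.4 and 81.7 in WT. The 2 null libraries thus lay on either side of the WT ones, and the log2 change was 0.60 (SE 0.36; -0.24 to 1.17 with 1 library left out). *Kcnip4* in cortex was at 93.8 and 160.5 CPM in null and 112, 66.4 and 86.4 in WT, an overlap with a log2 change of 0.54 (0.11 to 0.83 with 1 library left out). The makeup of the groups differed: TH cluster 12, where *Kcnip4* is highest, was 11.3% of SST/TH cells in WT cortex and 24.6% in null cortex, and cluster 22 was 7.06% and 20.5%. Null replicate 2 alone carried this, with 174 TH cells and 147 cells of cluster 22 among 649, against 6 and 3 among 84 in null replicate 1. The *Kcnip4* change was 0.13 with the TH cluster left out, and -0.83, -0.61 and 0.35 within clusters 4, 6 and 7. The higher *Kcnip4* of null replicate 2 thus cannot be told apart from its makeup, and null replicate 1 lay within the WT range. *Kcnip1* changed by 0.50, 0.75 and 0.24 within clusters 4, 6 and 7. *Kcnd2* in cortex was at 96.1 and 101.8 CPM in null and 111, 132 and 127 in WT, so both null libraries were lower, with a log2 change of -0.31 (SE 0.32). Of the 8 members tested, edgeR called 0 in cortex, where 0% of the 12929 genes tested were called; at an unadjusted p under 0.05 there were 0 members and 287 genes in all (2.22%), and DESeq2 called 0 members and 2 genes in all. For 1 of 8 members the libraries did not overlap, against 15.9% of all genes tested. The share of members without overlap was thus no larger than that of all genes.

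In SST/TH cells of the hippocampus *Kcnip1* and *Kcnip4* were higher in both null libraries than in all WT ones, by small margins. *Kcnip1* was at 55.5 and 39.1 CPM in null and 37.1, 28.7 and 29.9 in WT, a log2 change of 0.57 (SE 0.38; 0.28 to 0.87 with 1 library left out). Within clusters 4, 7 and 12 the *Kcnip1* change was 0.63, -0.28 and 0.81, so it turned within cluster 7. *Kcnip4* was at 59.5 and 59.1 CPM in null and 56.1, 9.84 and 47.0 in WT, a log2 change of 0.65 (SE 0.49; 0.24 to 0.99 with 1 library left out). The lowest of these *Kcnip4* values was that without WT hippocampus replicate 2. The change was 0.71, 0.68 and 0.47 within clusters 4, 7 and 12, and -0.15 when clustering was done without integration. edgeR called 0 of the 8 members tested in hippocampus, where 0% of the 12929 genes tested were called; at an unadjusted p under 0.05 there were 0 members and 402 genes in all (3.11%), and DESeq2 called 0 members and 1 gene in all, *Grin1*. Groups were apart without overlap for 2 of 8 members and 16.8% of all genes tested. *Dpp10*, at 86.4 and 170.4 CPM in null and 108, 173 and 114 in WT, overlapped and had a log2 change of -0.01 (-0.53 to 0.37 with 1 library left out).

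PVALB cells of the null cortex had more *Kcnd3* and *Dpp10* than those of the WT cortex. *Kcnd3* was at 46.0 and 47.7 CPM in null and 22.2, 11.9 and 11.7 in WT, so both null libraries exceeded all WT ones. The log2 change of *Kcnd3* was 1.71 (SE 0.41), with an unadjusted p of 0.000777 and an edgeR adjusted p of 0.184. *Dpp10* was at 74.4 and 115.9 CPM in null and 37.0, 67.1 and 47.1 in WT, again without overlap, with a log2 change of 0.96 (SE 0.33; edgeR adjusted p = 0.774; 0.59 to 1.18 with 1 library left out). The cluster makeup of the groups differed: cluster 2 gave 1134 of the PVALB cells in WT cortex and 133 in null cortex, while clusters 24 and 32 gave 113 and 37 in WT and 76 and 65 in null. Cluster 32 held 7 of 28 and 58 of 246 PVALB cells of the null libraries and 7.30%, 1.79% and 2.79% of those of WT. Cluster 24 was 3.57% and 30.5% in null and 10.9%, 13.3% and 4.81% in WT, so it was larger in null replicate 2 only. Within cluster 2 alone *Kcnd3* was at 4.80 and 11.6 CPM in null and 12.0, 5.81 and 8.49 in WT, which overlapped, with a log2 change of 0.29 (SE 0.56). *Dpp10* differed by 0.39 in log2 within cluster 2. The higher *Kcnd3* and *Dpp10* of null PVALB cells therefore cannot be told apart from the larger share of cluster 32 in both null libraries and of cluster 24 in replicate 2. By edgeR 0 of 7 members tested were called, where 0.0103% of the 9711 genes tested were called; at an unadjusted p under 0.05 there were 2 members and 368 genes in all (3.79%), and DESeq2 called 0 members and 15 genes in all. Libraries did not overlap for 5 of 7 members, against 20.1% of all genes tested. The other 3 were *Kcnd2*, *Kcnip1* and *Dpp6*, with log2 changes of 0.44, 0.35 and 0.39, all toward higher levels in null cells. With 1 library left out the change of *Kcnip1* ran from 0.11 to 0.66 and that of *Dpp6* from 0.23 to 0.52. Within cluster 2 the 3 changes were 0.45, -0.08 and 0.13, so that of *Kcnd2* was as large there and that of *Kcnip1* was not.

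In PVALB cells of the hippocampus 1 member separated the genotypes. *Kcnip1* was at 74.3 and 69.3 CPM in null and 51.5, 52.0 and 47.7 in WT, the only member without overlap, with a log2 change of 0.51 (SE 0.29). *Kcnip4* was at 92.8 and 50.2 CPM in null and 24.2, 43.3 and 59.1 in WT, an overlap with a log2 change of 0.62 (0.14 to 1.10 with 1 library left out). *Kcnd3* was at 27.8 and 39.8 CPM in null and 51.5, 22.5 and 19.3 in WT, also an overlap, with a log2 change of 0.31 (0.00 to 0.75 with 1 library left out). Of the 7 members tested, edgeR called 0, where 0% of the 9711 genes tested were called; at an unadjusted p under 0.05 there were 0 members and 299 genes in all (3.08%), and DESeq2 called 0 members and 1 gene in all, *Grin1*. For 1 of 7 members the libraries did not overlap, against 14.1% of all genes tested, so members were apart about as often as all genes. *Kcnip1* was thus higher in both null PVALB libraries in each region. Within cluster 2 its change was 0.57 in hippocampus, while in cortex it was slight and of the opposite sign, as given above.

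**Figure D4:**
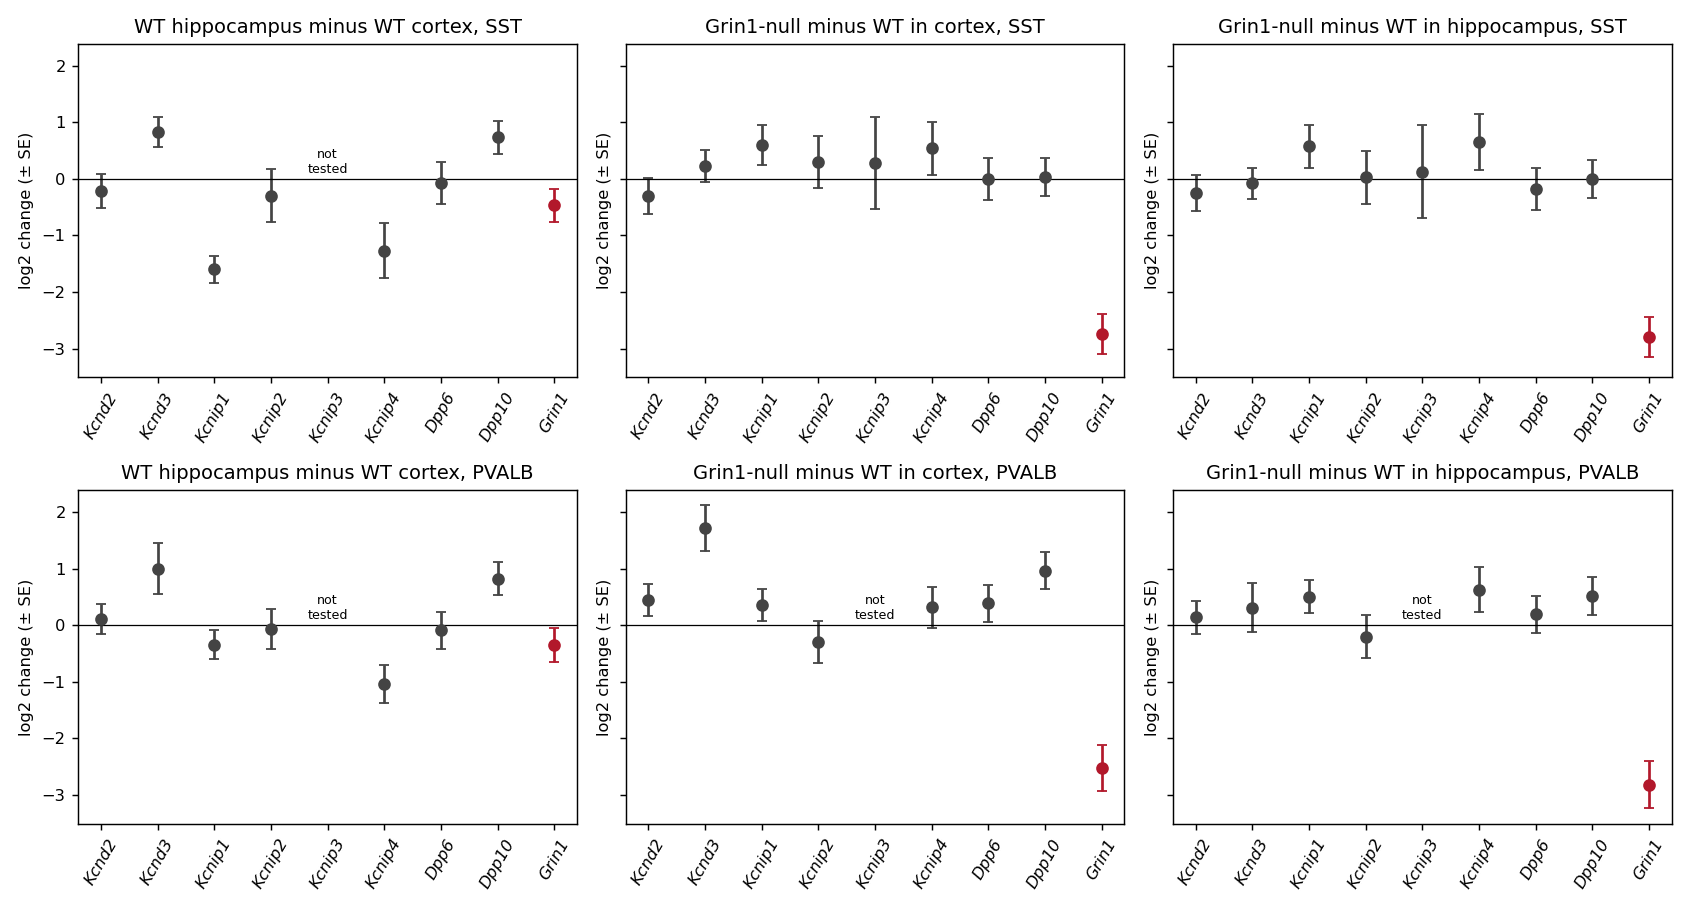
Log2 changes with standard errors of the 8 genes and *Grin1* (red) between WT regions and between null and WT in cortex and in hippocampus, in SST cells with the TH cluster (top) and PVALB cells (bottom). Axes: gene across, log2 change up. *Grin1* was at -2.74 in SST of null cortex; *Kcnip3* was not tested where so marked.

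NGFC and OPC were compared between genotypes in the hippocampus only. In NGFC *Grin1* was at 30.4 and 15.6 CPM in null and 116, 111 and 134 in WT, and the largest value among the members was that of *Kcnip1*. *Kcnip1* in NGFC was at 153 and 101 CPM in null and 63.2, 58.4 and 109 in WT, which overlapped, with a log2 change of 0.72 (SE 0.43; 0.34 to 1.05 with 1 library left out). The groups differed in makeup, with cluster 16 at 53.2% of NGFC in WT, nearly all from replicate 2, and 4.50% in null hippocampus. Without WT hippocampus replicate 2 the *Kcnip1* change was 0.58, and within cluster 3 alone it was 0.54. edgeR called 0 of the 8 members tested in NGFC, where 0% of the 9744 genes tested were called; at an unadjusted p under 0.05 there were 0 members and 317 genes in all (3.25%), and DESeq2 called 0 members and 1 gene in all. Groups were apart without overlap for 0 of 8 members and 19.1% of all genes tested. In OPC *Kcnip3* was at 185 and 193 CPM in null and 265, 169 and 218 in WT, which overlapped. *Kcnd3* in OPC was at 12.4 and 21.4 CPM in null and 26.5, 26.5 and 27.3 in WT, lower in both null libraries, with a log2 change of -0.55 (SE 0.72; -1.16 to -0.39 with 1 library left out). The *Kcnd3* value of null replicate 1 came from 26 OPC cells with a median of 2796.5 UMIs, so from very few UMIs. OPC makeup differed, with cluster 28 at 0% in null hippocampus, and within cluster 11, which leaves out WT hippocampus replicate 2, the *Kcnd3* change was -0.83. By edgeR 0 of 6 members tested were called in OPC, where 0% of the 7487 genes tested were called; at an unadjusted p under 0.05 there were 0 members and 190 genes in all (2.54%), and DESeq2 called 0 of all genes. Libraries did not overlap for 1 of 6 members, against 18.5% of all genes tested, so the share of members was no larger than that of all genes.

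The difference between genotypes was then compared between regions. In SST/TH cells 0 of 8 members were called by edgeR, where 0% of the 12929 genes tested were called; at an unadjusted p under 0.05 there were 0 members and 71 genes in all (0.549%), and DESeq2 called 0 of all genes. In PVALB cells 0 of 7 members were called by edgeR, where 0% of the 9711 genes tested were called; at an unadjusted p under 0.05 there was 1 member and 114 genes in all (1.17%), and DESeq2 called 0 of all genes. That member was *Kcnd3*, with a log2 difference of -1.40 (SE 0.60; edgeR adjusted p = 1) and 0.62 within cluster 2 alone. The sign of the *Kcnd3* value was thus the opposite within cluster 2. There *Kcnd3* was low in both null cortex libraries, as given above, and the smaller one held 20 cells. Whether makeup accounts for the turn was not tested.

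Related genes were read in the same way. The lists were 8 other A-type and Kv1 channel genes, 6 neuronal calcium sensor relatives of the KChIPs, 4 DPP relatives and 11 regulators and partners of Kv4. In every comparison 0 genes of each list were called by edgeR. Between regions in SST/TH cells *Hpca*, *Vsnl1* and *Grm5* had an unadjusted p under 0.05. In PVALB cells of null and WT cortex those genes were *Kcnab1*, *Hpcal1* and *Vsnl1*. The others were *Cacna1i* and *Grm5* in PVALB between regions, and, in null against WT hippocampus, *Vsnl1* in NGFC and *Kcna1* in OPC. The relatives thus gave no call, as the members gave none in the same fits. The most abundant sensor relative was *Vsnl1* in SST, at 952 CPM, and *Ncald* in NGFC and PVALB, at 783 and 592 CPM. In astrocytes it was *Ncald* at 48.4 CPM, where *Kcnip3* averaged 75.9. *Kcna1* averaged 280.1 CPM in PVALB, where the most abundant member, *Kcnip2*, averaged 207.

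Genes whose levels ran most closely with each member were sought over 29 library sums of SST, PVALB and NGFC cells. These Pearson correlations are descriptions without a test and mix differences between classes with differences between libraries. *Kcnip2* ran with *Prmt8* (r = 0.928) and *Stk32c* (r = 0.898). *Kcnip3* ran with *Sh3bgrl* (r = 0.901), and *Kcnip4* with *Ifitm10* (r = 0.892). The highest values were thus those of *Kcnip2*, *Kcnip3* and *Kcnip4*, although *Kcnip3* averaged 7.83 CPM over these sums. *Dpp6* ran with *Nsf* (r = 0.881) and *Dpp10* with *2510009E07Rik* (r = 0.835). *Kcnd2* ran with *Acvr1b* (r = 0.807), *Kcnd3* with *Slc35f1* (r = 0.778) and *Kcnip1* with *Ociad2* (r = 0.671). Between members the highest value was that of *Kcnip4* and *Dpp6* (r = 0.614), followed by *Kcnd3* and *Dpp10* (r = 0.535). The lowest were those of *Kcnip3* with *Dpp6* (r = -0.709) and of *Kcnip3* with *Kcnip4* (r = -0.709).

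The members lie on 7 chromosomes of GRCm38. *Dpp6* (ENSMUSG00000061576, chr5:26817203-27727505) spans 910.3 kb, and *Kcnip4* (ENSMUSG00000029088, chr5:48389502-49524907), also on chromosome 5, spans 1135.4 kb. *Kcnip2* (ENSMUSG00000025221, chr19:45791839-45816061) spans 24.2 kb and is the shortest. In the annotation used, which lacks the extended gene ends of the counts, no exon of a member overlapped an exon of another gene on the same strand. On the opposite strand *Kcnd3* overlapped 1 gene and *Kcnip4* overlapped 2.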

How the data were processed

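Medial ganglionic eminence-derived cells of 10 pooled libraries (6 WT, 4 *Grin1*-null) were used. The deposited counts are UMI counts per gene and cell that the authors made with Cell Ranger (2.1.1 in the submitters' notes, 3.0.2 in the matrix header) on mm10 with gene ends extended downstream. Each library was told apart by the barcode suffix, and its replicate number and kit were assigned by matching the number of barcodes per suffix with the cell numbers in the methods. Barcodes were used if their gene number was between 200 and 6000 and their mitochondrial share below 30%. Scrublet in scanpy 1.11.5 marked 249 doublets (0.95%), which were kept except in 1 alternative. Libraries were integrated and clustered with Seurat 5.3.0 and classes were named from fixed marker genes. UMIs were summed per library and class with at least 10 cells and divided by all UMIs of those cells for CPM. edgeR 4.0.16 (quasi-likelihood test, TMM, filterByExpr, Benjamini-Hochberg over all genes tested) called genes whose adjusted p was below 0.01 and whose change was at least 0.144 in log2 (0.1 in natural log). Regions were compared over the 6 WT libraries, and genotypes in 1 model of the 4 groups. For each replicate number, the WT cortex library was set beside the WT hippocampus one: deviations from the group means correlated at 0.611, 0.554 and 0.362 in SST/TH and 0.481, 0.544 and 0.296 in PVALB, so the number was taken to pair WT regions. That was decided after fits with and without the block had been seen. DESeq2 1.42.0, other scalings, filters, clusterings and libraries left out one at a time served as alternatives. The kit as a covariate, single clusters, and SST with other clusters were added after the data had been seen. The test was checked on simulated counts with a fixed spread and no replicate or kit effect. That check does not measure how the test performs on these libraries. Named genes were the 8 members, *Grin1*, the most abundant or called genes of each list, and the 2 genes with the highest correlation with each member. Relatives with an unadjusted p under 0.05 and marker genes of clusters were named after their values were seen. The members and lists were chosen with earlier results of these data known. Other software was Python 3.11.15, numpy 2.4.6, scipy 1.17.1, pandas 2.3.3, matplotlib 3.10.9 and R 4.3.3.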

Additional observations from a re-analysis of the deposited data

How the results depend on the processing

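The number of members called was the same in 292 of 298 comparisons with an alternative setting and moved in 6. In SST/TH between regions, 1 member was called with DESeq2, 1 without the expression filter, 1 at an adjusted p under 0.05, 2 with replicate block and 1 in cluster 4 alone. With the replicate block these were *Kcnip1* (log2 -1.59, edgeR adjusted p = 0.000139) and *Kcnip4* (log2 -1.38, edgeR adjusted p = 0.00495). *Kcnip1* without the filter had an edgeR adjusted p of 0.000364, and of 0.0114 with the kit as a covariate. In PVALB of null against WT cortex 1 member, *Kcnd3*, was called without the filter (log2 1.67, edgeR adjusted p = 0.00879), and the cause was not tested. Its adjusted p ranged from 0.00879 to 0.216 over the alternative settings of the whole class with all libraries, which leave out the fit of cluster 2 alone. With 1 library left out its log2 change ran from 1.54 to 2.01. With any library left out, 0 members were called in every comparison, and over those fits the *Kcnip1* log2 difference between regions in SST/TH ranged from -1.71 to -1.49 and that of *Kcnip4* from -1.62 to -0.87. Of 2353 fitted log2 changes of members and *Grin1*, 0 had the opposite sign of the main fit while either fit was called; signs of uncalled values did turn, as for *Kcnip1* in SST/TH of null against WT cortex (0.60 to -0.24). Genes called over the whole table moved more: between regions in SST/TH from 5 to between 2 and 261, and to between 0 and 5 with a library left out, and in PVALB from 3 to between 2 and 81, and to 0 with any library left out. With all libraries they moved from 1 to between 0 and 60 in PVALB of null against WT cortex. From 0 they rose to as many as 27 in SST/TH of null against WT cortex. In NGFC they rose from 0 to as many as 34 between regions and 24 in null against WT hippocampus. The replicate block changed no other call of a member. Between regions it moved the genes called in NGFC from 0 to 5 and in OPC from 0 to 41. Between genotypes fewer than 3 pairs share a number in each region, so no pairing was taken there. The deviations of same-number WT and null libraries of 1 region from their group means did correlate. With 2 null libraries per region, the deviations of those 2 mirror each other, and replicate 1 is also the v2 kit. These correlations thus cannot tell pairing from the kit. In SST/TH the values were 0.209 and 0.226 in cortex and 0.262 and 0.219 in hippocampus. In PVALB they were 0.241 and 0.245 in cortex and 0.183 and 0.19 in hippocampus. Over all same-number pairs, which include pairs across regions, the lowest correlations were 0.016 in SST/TH and 0.074 in PVALB. With 2 null libraries per region, 1 of them with 177 cells in cortex, the lack of a call does not show that a member was unchanged.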
